A study of Mus musculus with 17 samples.

Results

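RNA polymerase II occupancy at 4 h of R837 was compared with that at 2 h in mouse bone marrow-derived macrophages, over both genotypes of the study. The libraries were chosen by the treatment in their labels. They were 8 of the 16 summit lists of the series, 4 at 4 h (2 WT and 2 N4bp1 KO) against 4 at 2 h (2 WT and 2 N4bp1 KO). R837, or imiquimod, activates TLR7, a sensor of RNA in endosomes. KO cells lack N4bp1, whose product restrains inflammatory cytokine genes and is cut by caspase-8. The strain, age and sex of the mice, the dose of R837 and the structure of the N4bp1 allele are not given in the sources used here. The untreated and 6 h libraries of both genotypes are given only for orientation.

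TLR7 signals through MyD88 and the IkB kinases, which free NF-kB from its inhibitors within minutes. The genes transcribed at once, such as Tnf and Nfkbia, include the inhibitors that then shut NF-kB off again. A later wave depends on proteins made meanwhile, among them type I interferon, which acts back on the cell through its receptor to switch on interferon-stimulated genes. Activated macrophages also turn to glycolysis for energy. The comparison of 4 h with 2 h therefore sets a later time of this response against an earlier one.

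The deposited files list peak summits with a score and hold no read counts, so sequencing depth is unknown. From every list the 8394 best summits were kept, as many as the shortest of the 16 lists holds. A gene's rank is the place of its best summit within the gene or 1 kb either side, and rank 1 is the best of the list. Its rank score is log2 of 8395 divided by that rank, 0 with no summit and 13.04 at rank 1. A difference of 1 in rank score is a rank that is better by a factor of 2. It is a place among summits and not an amount of polymerase. Nothing in the labels tells whether the 2 libraries of a group came from different cultures or mice, so every p-value here rests on the spread between libraries, which may be technical.

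N4bp1, the gene knocked out in the KO cells (gene ID 80750, chr8:86841136-86885296 on GRCm38, minus strand) had no summit in the 4 untreated lists. At 2 h its rank was 2446 and 947 in WT and 1588 and 537 in KO. By 4 h it was 2213 and 1280 in WT and 1713 and 775 in KO. The ranks at the 2 times overlapped, and KO lists held summits at the gene as WT lists did. The rank score differed by -0.23 ± 0.55 (SE, 4 against 4 libraries, limma adjusted p = 0.826). Summits at this gene do not check the knockout, since the deleted stretch is not given in the sources used here. The gene of the receptor, Tlr7, had no summit in any 2 h list and ranked at 4529 and 2111 in WT and 2603 and 1825 in KO at 4 h. With no summit at 2 h its 2 h level was not measured, and it could be tested only through its 4 h summits. Its change of 1.69, counted from the end of the shortened list, could only be upwards. That change did not pass the threshold of 0.05 (limma adjusted p = 0.0673).

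The lists themselves differed between the times. At 2 h they held 10769 and 11010 summits in WT and 13825 and 9402 in KO, and at 4 h they held 16391 and 19710 in WT and 25612 and 24671 in KO. All 4 lists at 4 h were longer than all 4 at 2 h, by 0.93 on the log2 scale. The exact two-sided permutation test of time within genotype gave p = 0.0556, the smallest that its 36 relabellings allow, so no single value per library can reach 0.05 here. Equal lists of 8394 summits covered 3277 to 4984 genes at 2 h and 4230 to 5124 at 4 h, a log2 difference of 0.33 (exact permutation p = 0.0556). These ranges overlapped. The codes in the deposited peak names put the 2 h libraries in one series with the untreated ones and the 4 h libraries in another, so time and this series cannot be told apart. Among the 28 pairs of the 8 lists, 6 pairs shared 90.8 to 96.7% of their score values, and the others 36 to 44.2%. The 6 pairs were those among replicate 2 of KO at 2 h, both WT libraries at 4 h and replicate 2 of KO at 4 h. No pair shared more than 0.482% of exact summit positions, so none is 1 library deposited more than once. The part of this sharing in the results was not tested.

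Where the summits lay also differed. Summits further than 5 kb from any gene made up 3.74 to 4.50% of the shortened lists at 2 h and 8.23 to 9.75% at 4 h, with no overlap. The untreated lists held 6.09 to 7.47% there and the 6 h lists 4.97 to 8.04%. The difference was 5.02 percentage points (exact permutation p = 0.0556), and this measure was chosen after its values were seen. Summits in gene bodies made up 33.5 to 49.8% at 2 h and 32.1 to 38.7% at 4 h, 10.1 points fewer on average. Within 1 kb of a gene start lay 38.5 and 35.4% in WT and 53.1 and 35.2% in KO at 2 h, against 41.9 and 46.3% in WT and 49.0 and 48.8% in KO at 4 h. Replicate 1 of KO at 2 h stood above every 4 h list, and the difference of 5.93 points had an exact permutation p of 0.278. Without that library it was 10.4 points, and without replicate 2 of KO at 2 h it was 1.46. In the lists as deposited the sign turned, to -2.79 points (exact permutation p = 0.611).

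**Figure D1:**
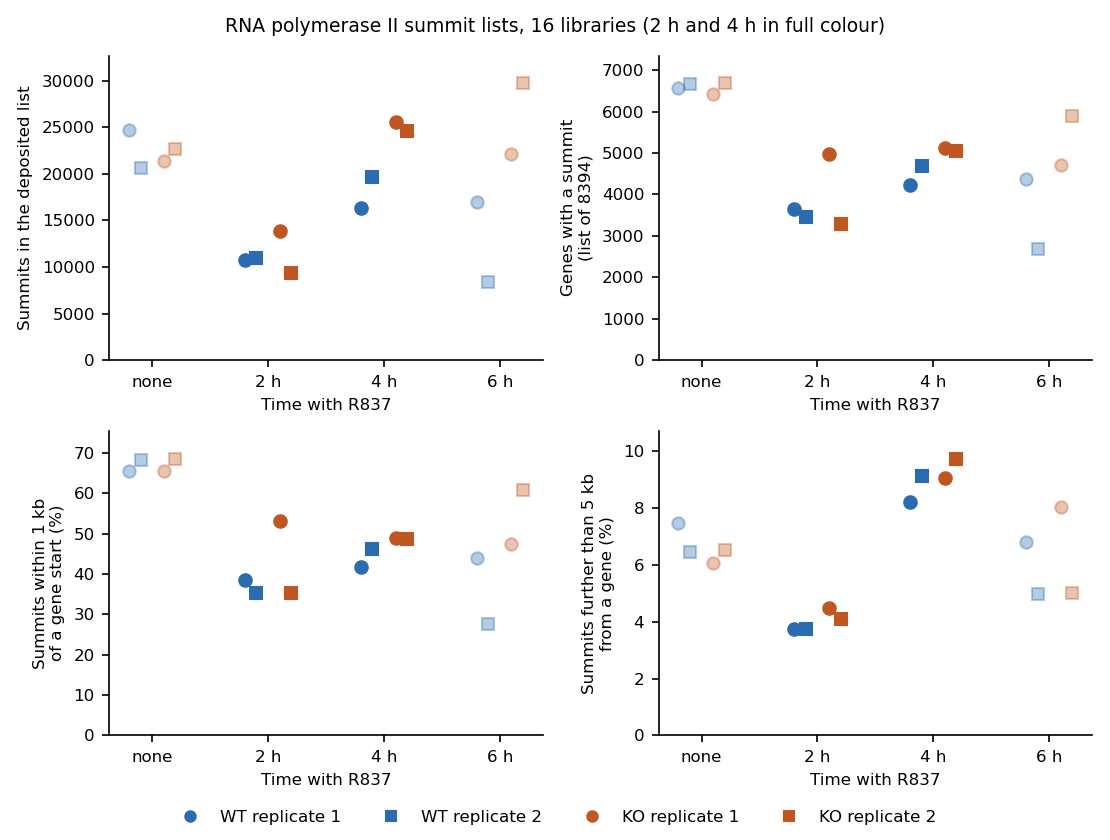
Number of summits in each deposited list, number of genes with a summit, and share of summits within 1 kb of a gene start or further than 5 kb from a gene, by time with R837 (untreated, 2, 4 and 6 h). Each point is 1 library, coloured by genotype; the 4 lists at 4 h are longer than the 4 at 2 h and hold 8.23 to 9.75% of their summits far from genes, against 3.74 to 4.50% at 2 h.

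The cells were checked against marker genes. Of 10 macrophage markers 9 had a summit in at least 2 of the 8 lists, among them Csf1r, Cd14, Cd68, Spi1 and Lyz2, and Mertk had none. No marker of B cells (8 listed), neutrophils (10), mast cells and basophils (8), erythroid cells (8) or fibroblasts (8) had a summit in 2 lists. Of the T and NK cell markers 1 of 10 did, and of the dendritic cell markers 2 of 8.

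Over all genes, 6200 had a summit in at least 2 of the 8 lists and were tested. Of these 201 rose (3.24%) and 116 fell (1.87%) at 4 h, 317 in all (5.11%, limma adjusted p under 0.05). Among them 57 risen and 45 fallen genes shared their best summit with another gene in at least 1 list, so calls are not all separate signals. With all genes that shared a summit left out, 159 rose and 76 fell of 3947. Values of the 4 libraries at 4 h lay wholly above those at 2 h for 521 genes (8.4%) and wholly below for 254 (4.1%). The median change over all tested genes was 0.14. Where genes were ranked among themselves, so that a gene with many summits took only 1 rank, 145 rose and 126 fell (5.67% of 4777 tested) and the median was -0.01. Changes in summit rank therefore stand beside a median of 0.14, and single genes differed between these scalings by other amounts. Genes that rose were then 53.5% of the calls, against 63.4% among summit ranks. Of the risen genes 32 had no summit in any 2 h list, and of the fallen genes 8 had none at 4 h. Such genes passed the filter on summits only through the other time and had to differ, and their change is measured from the end of the shortened list with no spread at the empty time. Leaving out 1 library at a time left 119 to 233 called genes, the fewest without replicate 2 of KO at 4 h. Without replicate 1 of KO at 2 h, the list that stood apart, 191 genes were called, 113 risen and 78 fallen.

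**Figure D2:**
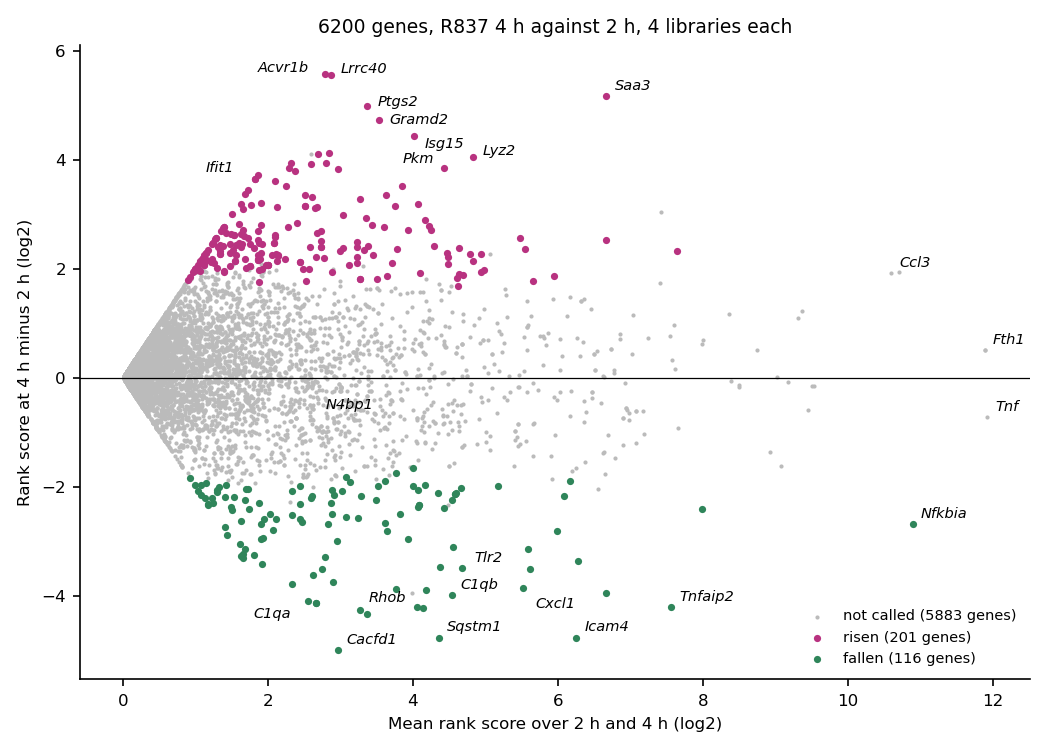
Change in rank score from 2 h to 4 h (vertical, log2) against the mean rank score over both times (horizontal, log2) for the 6200 tested genes, 4 libraries a time. Coloured points are the 201 risen and 116 fallen genes; Tnf, Fth1 and Ccl3 sit at the right edge as genes at the top of the lists at both times, and Nfkbia is the fallen gene nearest to them.

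The interferon-stimulated genes included 5 that rose. Of 28 listed genes 21 were tested and 1 fell. That is 23.8% risen and 4.76% fallen, against 3.24% and 1.87% of all tested genes. The median change was 1.27 against 0.14 over all tested genes. The risen members were Isg15, Usp18, Zbp1, Irf7 and Ifit1, the last of which had no summit at 2 h and could only rise. The promoters of 2 of them, and of 2 other risen genes with the same element, are printed because the interferon response element was more frequent among risen than among all tested genes. The sequences run from 250 bases before to 50 after the start, 5′ to 3′ on the gene's strand, from RefSeq on GRCm38.p6, and capitals mark the element on either strand, which is GAAA, any 2 bases and GAAA again.

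Isg15 (chr4:156200769-156201068, minus strand): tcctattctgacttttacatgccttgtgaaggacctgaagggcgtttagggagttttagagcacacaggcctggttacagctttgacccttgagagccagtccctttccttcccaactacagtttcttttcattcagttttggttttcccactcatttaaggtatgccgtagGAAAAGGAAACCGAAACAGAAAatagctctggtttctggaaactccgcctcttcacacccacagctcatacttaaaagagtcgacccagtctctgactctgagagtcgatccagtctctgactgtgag

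Ifit1 (chr19:34640639-34640938, plus strand): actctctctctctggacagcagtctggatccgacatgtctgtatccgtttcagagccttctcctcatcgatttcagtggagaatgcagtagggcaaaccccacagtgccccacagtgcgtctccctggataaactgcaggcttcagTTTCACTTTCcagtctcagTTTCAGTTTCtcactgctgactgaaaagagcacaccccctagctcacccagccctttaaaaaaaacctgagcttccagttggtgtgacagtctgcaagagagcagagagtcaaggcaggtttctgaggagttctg

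Ifi207 (chr1:173741760-173742059, minus strand): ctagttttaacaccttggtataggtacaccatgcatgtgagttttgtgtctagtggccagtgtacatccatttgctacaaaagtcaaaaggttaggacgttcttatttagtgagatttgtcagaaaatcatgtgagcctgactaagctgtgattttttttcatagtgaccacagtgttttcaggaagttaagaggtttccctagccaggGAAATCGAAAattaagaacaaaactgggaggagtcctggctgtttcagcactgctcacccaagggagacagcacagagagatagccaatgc

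Saa3 (chr7:46715627-46715926, minus strand): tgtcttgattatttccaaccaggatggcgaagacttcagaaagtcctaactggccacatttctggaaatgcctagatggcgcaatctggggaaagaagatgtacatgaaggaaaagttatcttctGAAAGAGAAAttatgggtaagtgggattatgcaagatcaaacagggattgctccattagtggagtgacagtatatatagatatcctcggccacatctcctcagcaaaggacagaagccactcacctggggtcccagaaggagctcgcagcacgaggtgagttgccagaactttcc

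The element began at positions -78, -72 and -66 from the start of Isg15, in overlapping copies, at -104 and -85 of Ifit1, at -41 of Ifi207 and at -125 of Saa3. It stood in 17 of the 162 risen genes with a promoter sequence (10.5%), in 4 of 97 fallen genes (4.12%), in 4.25% of 5147 tested genes and in 3.94% of all 17492 promoters. Of the tested interferon-stimulated genes with a sequence 11 of 19 held it, and of the 17 risen genes Isg15 and Ifit1 are on that list. AP-1 sites (TGANTCA) stood in 8.64% of risen, 6.19% of fallen and 6.12% of tested genes. The CRE (TGACGTCA) stood in 2.47%, 2.06% and 4.18%, and the E-box (CACGTG) in 13.6%, 12.4% and 12.8%. A match describes letters in this window and not a bound factor.

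Isg15, a ubiquitin-like protein joined to other proteins in antiviral cells, had no summit in the untreated lists. It ranked at 1853 and 2930 in WT and 1617 and 3854 in KO at 2 h, and at 32 and 133 in WT and 231 and 154 in KO at 4 h. Every 4 h rank was better than every 2 h rank, and the rank score rose by 4.44 ± 0.56 (limma adjusted p = 6.05e-05). Its best summit lay near the start at both times, at a median of 62.0 and 58.5 bases downstream. At 6 h Isg15 ranked at 648 and 922 in WT and 512 and 1231 in KO, between its 2 h and 4 h ranks.

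Usp18, the protease that removes ISG15 and dampens the interferon receptor, ranked at 1320 and 6087 in WT at 2 h, and at 3976 in 1 KO list with no summit in the other. In the 4 h lists it ranked at 195 and 208 in WT and 258 and 637 in KO. The groups did not overlap, with a rise of 3.82 ± 0.56 (limma adjusted p = 2.33e-04). Ifit1, which binds foreign RNA caps, had no summit in any untreated or 2 h list. It ranked at 336 and 490 in WT and 1414 and 857 in KO at 4 h, 3.65 above the end of the shortened list, with no measured 2 h level. In all 4 of these lists the best summit also lay in the region of the neighbouring copy Ifit1bl2, so the summit cannot be given to 1 of these genes. Zbp1, a sensor of Z-form nucleic acids that can start necroptosis, had 1 summit at 2 h, at rank 6112 in WT, and ranked at 504 and 744 in WT and 1472 and 1242 in KO at 4 h. It rose by 3.09 ± 0.52 (limma adjusted p = 8.85e-04). Irf7, the transcription factor that amplifies type I interferon after endosomal TLR signals, ranked at 5182 and 3656 in WT and 4031 and 5500 in KO at 2 h. In the 4 h lists it ranked at 147 and 541 in WT and 1676 and 1452 in KO, a rise of 2.77 ± 0.60 (limma adjusted p = 0.00786), called in 5 of the 8 fits that left out 1 library.

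The member that fell was Irf1, an interferon regulatory factor that NF-kB also drives. It ranked at 196 and 156 in WT and 158 and 476 in KO at 2 h, and at 1341 and 1188 in WT and 824 and 1287 in KO at 4 h. Its ranks did not overlap and its score changed by -2.38 ± 0.50 (limma adjusted p = 0.00696), and the call was lost without replicate 2 of KO at 4 h (adjusted p = 0.0568). Members that did not pass included Rsad2, the antiviral enzyme viperin, with no summit at 2 h and ranks of 986 and 2111 in WT and 8369 in 1 KO list at 4 h. Cxcl10, a chemokine for T cells, had summits in WT alone at 2 h, at ranks 1428 and 639, and in 1 list of each genotype at 4 h, at 4655 and 4102. Outside the list, Ifi207, a member of the interferon-inducible HIN-200 family, ranked at 7707 and 1606 in WT at 2 h with no summit in KO. It ranked at 156 and 271 in WT and 793 and 493 in KO at 4 h, a rise of 3.92 ± 0.55 (limma adjusted p = 1.76e-04).

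The NF-kB primary response list showed both directions. Of 30 genes 29 were tested, 4 fell (Icam1, Cxcl1, Nfkbie and Nfkbia) and 2 rose (Ptgs2 and Plek). That is 13.8% fallen and 6.90% risen, against 1.87% and 3.24% of all tested genes. The median change was -0.77, and 21 of the 29 had a lower mean at 4 h, as did 2467 of all 6200 tested genes. With genes ranked among themselves 6 fell and 2 rose. The promoters of Cxcl1 and Nfkbie, and of Tlr2, which fell too, are printed with matches to the NF-kB letters, GGG and CC with any 5 bases between, on either strand in capitals. These letters are loose: they stood in 72.5% of tested genes, in 69.8% of risen and in 83.5% of fallen ones.

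Cxcl1 (chr5:90890995-90891294, plus strand): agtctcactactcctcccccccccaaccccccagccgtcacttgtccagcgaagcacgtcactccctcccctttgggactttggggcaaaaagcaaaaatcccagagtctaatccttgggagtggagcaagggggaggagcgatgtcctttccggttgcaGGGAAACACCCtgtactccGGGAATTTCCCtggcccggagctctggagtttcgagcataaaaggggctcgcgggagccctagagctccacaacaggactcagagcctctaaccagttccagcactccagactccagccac

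Nfkbie (chr17:45555450-45555749, plus strand): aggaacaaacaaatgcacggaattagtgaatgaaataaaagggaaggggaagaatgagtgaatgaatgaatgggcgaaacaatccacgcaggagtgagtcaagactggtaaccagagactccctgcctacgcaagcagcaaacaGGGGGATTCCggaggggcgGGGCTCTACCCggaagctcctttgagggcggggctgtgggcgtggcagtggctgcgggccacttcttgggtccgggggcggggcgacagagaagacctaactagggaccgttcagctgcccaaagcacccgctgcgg

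Tlr2 (chr3:83841559-83841858, minus strand): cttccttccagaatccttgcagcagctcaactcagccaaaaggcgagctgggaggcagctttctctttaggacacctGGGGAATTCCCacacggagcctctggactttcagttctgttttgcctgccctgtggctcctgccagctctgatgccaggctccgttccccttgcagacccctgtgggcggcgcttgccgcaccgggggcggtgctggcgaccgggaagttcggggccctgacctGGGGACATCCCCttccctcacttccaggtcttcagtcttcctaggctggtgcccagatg

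Matches began at -90, -89, -71 and -70 in Cxcl1, at -106, -87 and -86 in Nfkbie and at -173, -172, -9, -8 and -7 in Tlr2, and several of them overlap.

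Icam1, the adhesion molecule that leukocyte integrins bind, ranked at 22 and 18 in WT and 20 and 25 in KO at 2 h. At 4 h it ranked at 527 and 457 in WT and 165 and 280 in KO. The ranks at 2 h were all better and close to each other, and the score changed by -3.94 ± 0.49 (limma adjusted p = 5.14e-05). The number of summits in the gene, another quantity, went the other way: on the scale of log2(n + 1) it was higher at 4 h by 0.76 (limma adjusted p = 0.00701). Icam4 lies next to it, shared the best summit in 6 of the 8 lists and changed by -4.77 ± 0.57. The best summit at Icam1 lay a median of 13765 bases from the start at 2 h and 6928 at 4 h. Cxcl1, a neutrophil chemokine, had no summit in untreated lists and ranked at 84 and 109 in WT and 29 and 20 in KO at 2 h. At 4 h it ranked at 4130 and 1169 in WT and at 114 and 421 in KO. KO ranks were better than WT ranks at both times, and both genotypes were lower at 4 h, with a change of -3.85 ± 0.56 (limma adjusted p = 2.30e-04).

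Of the IkB family genes on the list Nfkbie and Nfkbia fell. Nfkbiz, with a change of -0.62 ± 0.56, did not pass (limma adjusted p = 0.523), and Bcl3 was not called either. Nfkbie, which encodes IkB-epsilon, ranked at 136 and 90 in WT and 99 and 179 in KO at 2 h, and at 4283 and 1703 in WT and 384 and 1198 in KO at 4 h. It fell by 3.48 on the log2 scale (SE 0.58, limma adjusted p = 7.62e-04), and its best summit was also that of Slc35b2 in 6 lists. Nfkbia, which encodes IkB-alpha, stood at ranks 1 and 3 in WT and 1 and 3 in KO at 2 h. At 4 h it stood at 22 and 8 in WT and 6 and 15 in KO, still in the top 25 of every list. Its change was -2.70 ± 0.64 (limma adjusted p = 0.0142), and the call remained in 3 of the 8 fits that left out 1 library, where the change ran from -3.06 to -2.33 and the adjusted p reached 0.130. Tnfaip3, the ubiquitin editor A20, ranked from 64 to 79 at 2 h and from 42 to 229 at 4 h, and its change of -0.47 ± 0.51 did not pass.

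Tnf and the chemokine genes Ccl3 and Ccl4 held the top of the lists at 4 h. Tnf ranked at 2 and 2 in WT and 2 and 1 in KO at 2 h, and at 5 and 4 in WT and 1 and 3 in KO at 4 h, with overlap and a change of -0.73 ± 0.61 (limma adjusted p = 0.490). Ccl3, a macrophage chemokine, ranked at 7 and 12 in WT and 18 and 8 in KO at 2 h and at 3 and 1 in WT and 4 and 5 in KO at 4 h. These ranks did not overlap, yet the change of 1.91 ± 0.59 did not pass (limma adjusted p = 0.0683). Ccl4 ranked at 7 to 15 at 2 h and 1 to 7 at 4 h. Fth1, the ferritin heavy chain that stores iron, was in the top 10 at both times in all 8 lists, from rank 1 to rank 6.

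Ptgs2 moved the other way. It encodes cyclooxygenase 2, which makes the precursor of prostaglandins, and had no untreated summit. At 2 h it ranked at 5938 and 3580 in WT and 2427 in 1 KO list, with none in the other, and at 4 h at 402 and 171 in WT and 49 and 131 in KO. The rise was 4.98 ± 0.58 (limma adjusted p = 3.56e-05). At the neighbouring gene Pla2g4a, the phospholipase that frees arachidonic acid for this enzyme, ranks went from 5098 and 5307 in WT and 2214 in 1 KO list to 355 and 299 in WT and 579 and 147 in KO. It rose by 3.94 ± 0.56 (limma adjusted p = 1.94e-04). Plek, the platelet and leukocyte protein pleckstrin, ranked at 373 to 1749 at 2 h and 89 to 207 at 4 h and rose by 2.37 ± 0.54 (limma adjusted p = 0.0121), called in 3 of the 8 fits that left out 1 library.

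**Figure D3:**
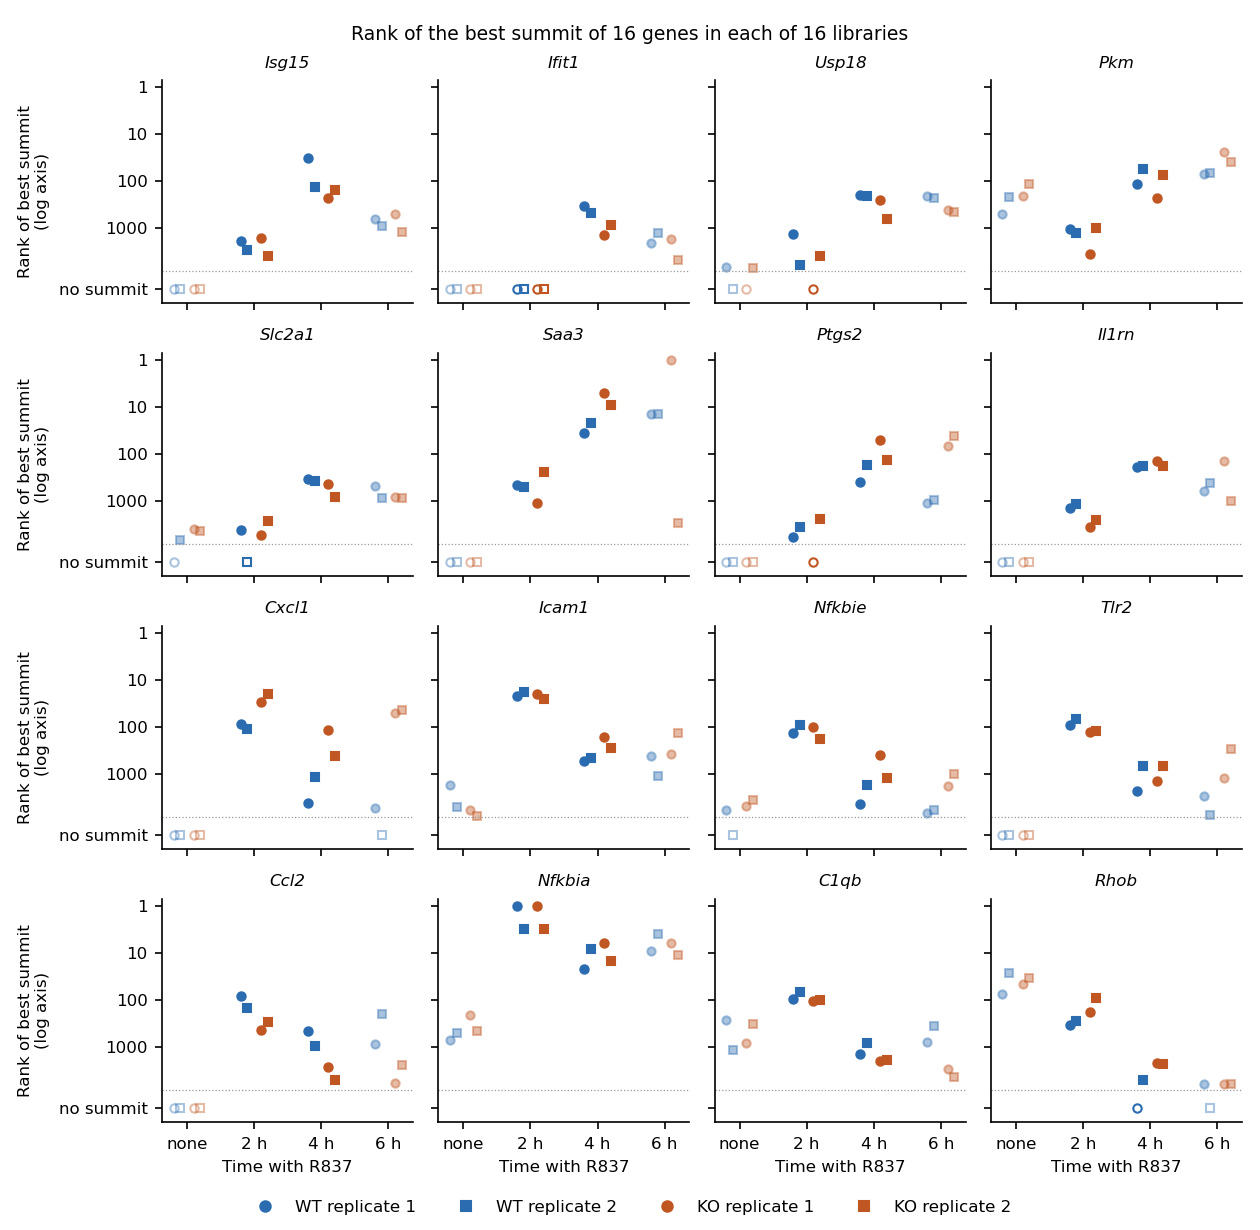
Rank of the best summit (vertical, log axis, rank 1 at the top, dotted line at the end of the shortened list) of 16 genes in each of the 16 libraries, by time with R837; each point is 1 library and open points are lists with no summit. Isg15, Ifit1, Usp18, Pkm, Slc2a1, Saa3, Ptgs2 and Il1rn stand higher at 4 h than at 2 h in every library, and Cxcl1, Icam1, Nfkbie, Tlr2, Ccl2, Nfkbia, C1qb and Rhob stand lower.

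Secondary cytokines and effectors split. Of 24 genes 15 were tested, of which 2 rose and 2 fell, and the median change was 0.24. That is 13.3% in each direction, against 3.24% risen and 1.87% fallen of all tested genes. Saa3, an acute phase protein made by macrophages, had no untreated summit, ranked at 461 and 491 in WT and 1113 and 237 in KO at 2 h, and reached 36 and 22 in WT and 5 and 9 in KO at 4 h. That is a rise of 5.17 ± 0.58 without overlap (limma adjusted p = 3.01e-05), and Saal1 shared the summit in 2 lists. Acod1, which makes itaconate, ranked at 842 and 419 in WT and 166 and 149 in KO at 2 h and at 130 and 146 in WT and 76 and 45 in KO at 4 h. Its rise was 1.77 ± 0.47 (limma adjusted p = 0.0315), called in 1 of the 8 fits without a library (adjusted p up to 0.155).

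The monocyte chemokine genes Ccl2 and Ccl7, neighbours in one cluster, fell. Ccl2 ranked at 80 and 149 in WT and 440 and 286 in KO at 2 h and at 448 and 942 in WT and 2639 and 4979 in KO at 4 h, a change of -2.96 ± 0.50 (limma adjusted p = 9.01e-04). Ccl7 ranked at 91 and 112 in WT and 147 and 100 in KO at 2 h and at 563 and 457 in WT at 4 h. It had no summit in the shortened KO lists at 4 h, where the longer deposited lists held it at ranks 8951 and 11900. Its change was -4.22 ± 0.62 (limma adjusted p = 2.36e-04).

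Brakes on the response did not move as one. Of 24 negative feedback genes 21 were tested, 3 rose (Il1rn, Atf3 and Irak3) and Nfkbia fell, and the median change was -0.15. That is 14.3% risen and 4.76% fallen, against 3.24% and 1.87% of all tested genes. Il1rn, which encodes the antagonist of the interleukin-1 receptor, ranked at 1390 and 1180 in WT and 3529 and 2582 in KO at 2 h and at 192 and 183 in WT and 138 and 183 in KO at 4 h. The 4 h ranks lay close together and the rise was 3.51 ± 0.49 (limma adjusted p = 1.56e-04). Irak3, a kinase-like protein that holds back MyD88 signalling, ranked at 1598 to 5303 at 2 h and 387 to 789 at 4 h, a rise of 2.19 ± 0.54 (limma adjusted p = 0.0191), called in 2 of these fits. Atf3, a repressor of cytokine genes, ranked at 4428 and 6688 in WT and 1292 and 1746 in KO at 2 h and at 379 and 348 in WT and 1730 and 625 in KO at 4 h. Its ranks overlapped, and the rise of 2.22 ± 0.63 (limma adjusted p = 0.0462) was called in 1 of the 8 fits without a library (adjusted p up to 0.216).

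Of 35 genes of the TLR, IKK and caspase-8 pathway 28 were tested and 1 changed, a fall (3.57%, against 1.87% of all tested genes). Tlr2, the receptor for bacterial lipopeptides, ranked at 92 and 66 in WT and 126 and 119 in KO at 2 h and at 2318 and 675 in WT and 1439 and 667 in KO at 4 h. It fell by 3.50 on the log2 scale (SE 0.52, limma adjusted p = 2.43e-04), with no overlap and no summit in untreated lists. Among 14 tested immediate early genes, which respond without new protein, Btg2 and Atf3 rose (14.3%, against 3.24% of all tested genes) and none fell. The call at Btg2 (limma adjusted p = 0.0264) remained in 3 of the 8 fits without a library (adjusted p up to 0.179), and was lost with a summit in at least 1 list (0.112) and without the variance trend (0.0784).

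Of 20 listed genes of glycolysis and the hypoxia response 18 were tested, of which 10 rose, 8 did not pass and none fell. That is 55.6% risen, against 3.24% of all tested genes. The 10 include Bnip3 and Pgk1, which passed the filter only through the 4 h lists and could only rise. The median change was 2.07, and 11 had 4 h values wholly above those at 2 h, as did 8.4% of all tested genes. Without any 1 library 7 to 9 members were called risen, and 8 were with genes ranked among themselves. The median was 2.36 in WT and 2.00 in KO. Pkm, the pyruvate kinase that makes pyruvate and ATP, ranked at 1047 and 1298 in WT and 3548 and 1003 in KO at 2 h and at 118 and 56 in WT and 227 and 74 in KO at 4 h. It rose by 3.85 ± 0.54 without overlap (limma adjusted p = 1.65e-04). Its best summit lay a median of 45.0 bases from the start at 2 h and 23042 at 4 h, and in 3 lists Gramd2 next to it shared that summit. Gramd2 itself changed by 4.73 ± 0.56.

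Slc2a1, the glucose transporter GLUT1, ranked at 4196 in 1 WT list and at 5178 and 2671 in KO at 2 h, with no summit in the other WT list. At 4 h it ranked at 342 and 377 in WT and 435 and 817 in KO, a rise of 3.34 ± 0.54 (limma adjusted p = 5.26e-04). Slc16a3, the lactate exporter MCT4, had a summit in 1 list of each genotype at 2 h, at 7077 and 5987, and ranked at 1726 and 465 in WT and 382 and 1518 in KO at 4 h. It rose by 3.16 ± 0.59 (limma adjusted p = 0.00226). Pgam1, phosphoglycerate mutase, went from 3872 and 5686 in WT and 4003 and 2720 in KO to 500 and 543 in WT and 158 and 1013 in KO, a rise of 3.11 ± 0.57 (limma adjusted p = 0.00201). None of these genes had overlapping ranks between the times.

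Further down the pathway, Gapdh ranked at 183 to 465 at 2 h and 61 to 87 at 4 h and rose by 1.86 ± 0.48 (limma adjusted p = 0.0232), called in 2 of the 8 fits without a library. Ldha, which turns pyruvate into lactate, ranked at 365 to 480 at 2 h and 48 to 146 at 4 h and rose by 2.35 ± 0.49 (limma adjusted p = 0.00606). Bnip3, a hypoxia-induced inducer of mitophagy, and Pgk1, phosphoglycerate kinase, had no summit in any 2 h list and a summit in all 4 lists at 4 h, so they passed the filter only through the 4 h lists. Eno1 and Pfkl rose too, by 2.44 and 2.85. Of the 8 fits without a library, 3 called Pgk1, 6 called Bnip3 and 6 called Eno1. Hif1a, the oxygen-regulated transcription factor of these genes, ranked at 2863 to 5955 at 2 h and 2471 to 6515 at 4 h, and its change of -0.04 ± 0.56 did not pass. Pfkfb3, an inducible activator of glycolysis, stood at ranks 194 to 231 at 2 h and 130 to 443 at 4 h, with a change of 0.03 ± 0.49.

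Hmox1, the haem-degrading enzyme and a target of NRF2, rose by 3.13 ± 0.54 (limma adjusted p = 0.00107). It ranked at 6165 in 1 WT list and 1071 and 4141 in KO at 2 h and at 608 and 512 in WT and 335 and 377 in KO at 4 h, with no overlap. It was the single called gene among 8 tested NRF2 and iron genes (12.5% risen, against 3.24% of all tested genes). All 8 had a higher mean at 4 h (median 1.32). Over all 6200 tested genes 3733 had a higher mean at 4 h. None of the 16 tested genes of oxidative phosphorylation passed, with a median of 0.16. The lowest p there was that of Atp5a1, an ATP synthase subunit, at ranks 278 to 929 at 2 h and 970 to 4345 at 4 h. It changed by -1.66 ± 0.51 (limma adjusted p = 0.0690).

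**Figure D4:**
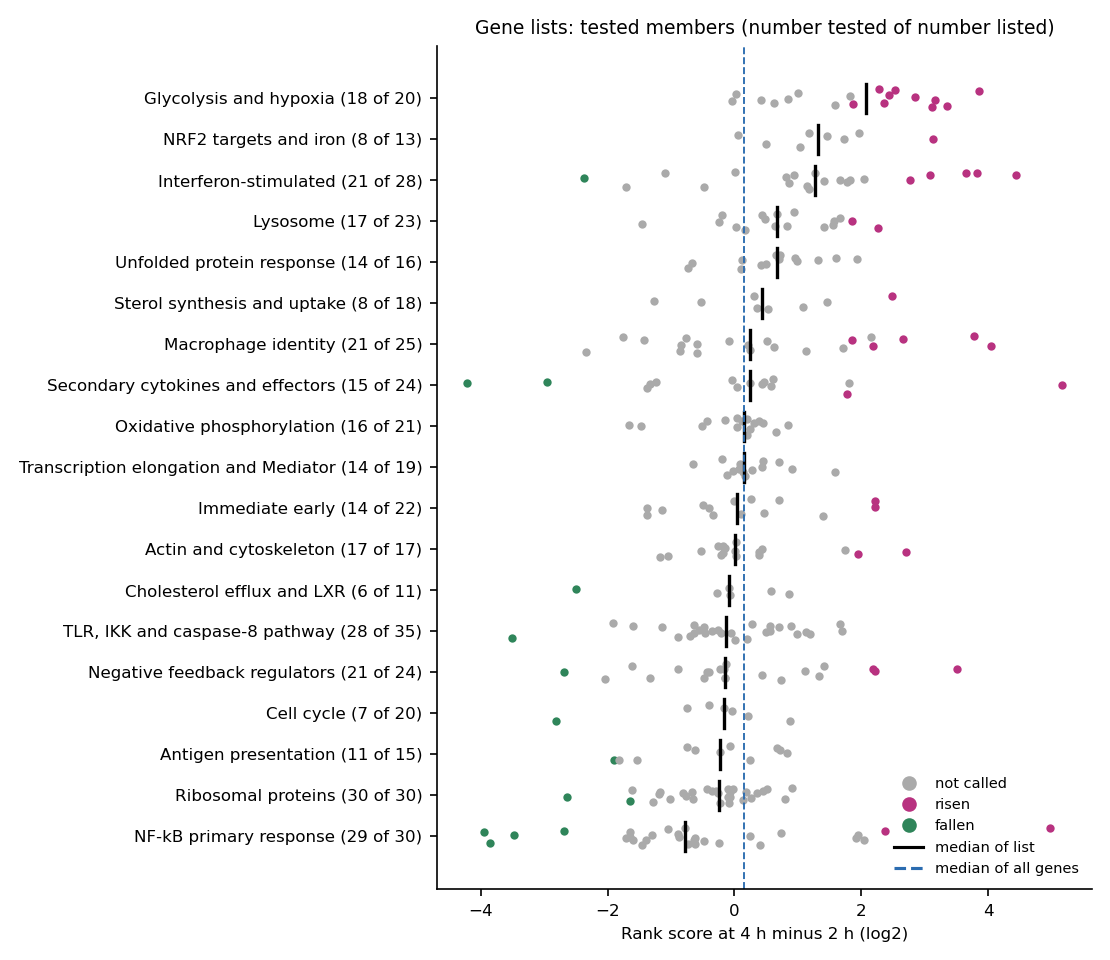
Change in rank score from 2 h to 4 h (horizontal, log2) of each tested member of the 19 gene lists, with the median of each list (black bar) and of all 6200 tested genes (dashed line). Glycolysis and hypoxia has 10 risen and no fallen member and the highest median (2.07), and the NF-kB primary response has 4 fallen and 2 risen members and the lowest (-0.77).

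Genes of macrophage identity included 5 risen and no fallen member among 21 tested (median 0.25). That is 23.8% risen, against 3.24% of all tested genes. Lyz2, lysozyme, ranked at 790 and 983 in WT and 3141 and 860 in KO at 2 h and at 65 and 42 in WT and 55 and 190 in KO at 4 h, a rise of 4.04 ± 0.54 (limma adjusted p = 1.10e-04). Itgam, the integrin chain CD11b, had no untreated summit, ranked at 4619 in 1 WT list and 6406 and 5365 in KO at 2 h, and stood at 477 and 213 in WT and 532 and 686 in KO at 4 h. It rose by 3.78 ± 0.52 (limma adjusted p = 1.50e-04). Tyrobp, the adaptor DAP12, ranked at 2368 to 4231 at 2 h and 238 to 1292 at 4 h and rose by 2.66 ± 0.53 (limma adjusted p = 0.00422), a call lost without replicate 2 of KO at 4 h (adjusted p = 0.0567). Maf and Ctsb were the other two, with calls that remained in 2 and 1 of the 8 fits without a library.

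Complement C1q genes, whose 3 products form the recognition unit of the classical pathway and which lie side by side, fell together. C1qa ranked at 517 and 175 in WT and 426 and 374 in KO at 2 h and at 2854 and 6142 in WT at 4 h, with no summit in the shortened KO lists. The deposited KO lists at 4 h held summits at ranks 17149 and 9118, 0.054 and 1.14 kb outside C1qa. At 2 h its best summit lay 0.946 to 0.995 kb outside the gene in replicate 1 of WT and both KO lists, near the region's edge. With 3 kb on each side the change at C1qa was -3.98 (limma adjusted p = 9.35e-05). C1qb ranked at 97 and 68 in WT and 106 and 98 in KO at 2 h and at 1393 and 835 in WT and 2025 and 1848 in KO at 4 h. C1qc ranked at 114 and 122 in WT and 124 and 117 in KO at 2 h and at 467 and 2806 in WT and 2822 and 2726 in KO at 4 h. All 3 genes had 2 h ranks better than every 4 h rank, and they changed by -4.10 ± 0.53, -3.99 ± 0.46 and -3.90 ± 0.55 (limma adjusted p = 7.55e-05, 3.56e-05 and 1.83e-04).

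Other large falls were scattered over functions. Rhob, a small GTPase of endosomes, ranked at 26 to 76 in untreated lists, at 336 and 282 in WT and 178 and 91 in KO at 2 h, and at 5062 in 1 WT list and 2157 and 2305 in KO at 4 h. It fell by 4.27 on the log2 scale (SE 0.48, limma adjusted p = 3.01e-05). Tnfaip2, a gene induced by TNF, ranked at 8 and 13 in WT and 9 and 12 in KO at 2 h and at 1059 and 352 in WT and 34 and 106 in KO at 4 h, a change of -4.22 ± 0.66 (limma adjusted p = 3.98e-04). Its neighbour Exoc3l4 changed by -4.34 ± 0.64. Bcl2l11, which encodes the death protein BIM, ranked at 231 and 253 in WT and 446 and 394 in KO at 2 h and at 5397 in 1 WT list and 5917 and 3574 in KO at 4 h. Its change of -4.13 ± 0.51 (limma adjusted p = 5.14e-05) rests on summits that also lie in Acoxl in 7 lists. Cacfd1 had the largest fall of all called genes, with changes of -5.90 in WT and -4.11 in KO (limma adjusted p = 1.26e-05 over both). Its ranks were 135 to 316 at 2 h and 3362 and 5717 in KO alone at 4 h. In at least 1 list its best summit was also that of another gene. Psd changed by -3.88 ± 0.65.

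Sqstm1, the autophagy receptor p62, depended on the width of the gene region. It ranked at 81 and 87 in WT and 64 and 84 in KO at 2 h and at 592 and 509 in WT at 4 h, with no summit in the KO lists. Its change was -4.77 ± 0.65 (limma adjusted p = 1.20e-04), and its best summit was also that of another gene in at least 1 list. The KO lists at 4 h held summits at ranks 94 and 95 that lay 2.41 and 2.48 kb outside Sqstm1. With 3 kb on each side the change was -1.61 and did not pass (limma adjusted p = 0.0649).

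The largest rises included genes whose summit was far from the start. Acvr1b, an activin receptor, had no summit in any 2 h list and ranked at 110 and 437 in WT and 158 and 130 in KO at 4 h, a change of 5.57 from the end of the shortened list. With no summit at 2 h its 2 h level was not measured, and no error is given. Its summits at 4 h lay a median of 22348 bases from the start. Lrrc40 had 1 summit at 2 h, at rank 6554 in KO, and ranked at 104 and 98 in WT and 217 and 363 in KO at 4 h, a median of 25656 bases from the start. Its change was 5.55 ± 0.51 (limma adjusted p = 3.84e-06), and its best summit was also that of another gene in at least 1 list. Both genes also had summits in untreated lists, at ranks 205 to 3019 for Acvr1b and 3835 to 7774 for Lrrc40. Agrn, Isca1 and Wfdc17 rose by 4.12, 4.11 and 3.94.

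Over all risen genes with a known strand, the best summit lay within 1 kb of a start in 65.4 to 78.3% at 2 h and 66.0 to 66.7% at 4 h. For fallen genes the share was 40.2 to 51.5% at 2 h and 52.5 to 59.1% at 4 h, and for all tested genes 72.3 to 82.5% and 75.9 to 79.2%. In each of the 8 lists both the risen and the fallen genes thus had a smaller share of best summits at a start than all tested genes. The share was lower in the fallen than in the risen genes in every list.

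Lists of other functions held few calls in number. Their shares stand against 3.24% risen and 1.87% fallen of all tested genes, and many of the lists are short. Of 30 ribosomal protein genes, all tested, Rps19 and Rpl10a fell (6.67%) and none rose (median -0.25). Rps19 ranked at 593 and 1714 in WT and 523 and 253 in KO at 2 h and at 8224 and 2232 in WT and 3263 and 3414 in KO at 4 h, a change of -2.64 ± 0.58 (limma adjusted p = 0.00888). Its call remained in 3 of the 8 fits without a library (adjusted p up to 0.0816), and that of Rpl10a in 0 (adjusted p up to 0.151). Cdkn1a, the cell cycle inhibitor p21, was the only called gene of 7 tested cell cycle genes (14.3% fallen). It fell from ranks of 201 to 375 to ranks of 1385 to 3016 (-2.81 ± 0.47, limma adjusted p = 7.94e-04). Mylip, a target of LXR that degrades the LDL receptor, ranked at 51 to 76 in untreated lists, 168 to 414 at 2 h and 833 to 3064 at 4 h, had no summit at 6 h, and fell by 2.50 from 2 h to 4 h (limma adjusted p = 0.00258). Of 6 tested genes of cholesterol efflux and LXR it was the only one called (16.7% fallen). H2-K1, an MHC class I heavy chain, was the only called gene of 11 tested antigen presentation genes (9.09% fallen). It changed by -1.90 ± 0.46 (limma adjusted p = 0.0162), called in 4 of the 8 fits without a library.

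Among 17 tested lysosome genes Hexa and Ctsb rose (11.8%, against 3.24% of all tested genes) and none fell (median 0.68). Hexa, a subunit of beta-hexosaminidase, ranked at 4724 in 1 KO list at 2 h and at 1063 to 1786 in all 4 lists at 4 h, a rise of 2.26 ± 0.54 (limma adjusted p = 0.0154). It was called in 2 of the 8 fits without a library (adjusted p up to 0.0792) and not with the 4000 best summits (adjusted p = 0.0863). Ctsb, a cysteine protease, ranked at 959 to 2269 at 2 h and 243 to 550 at 4 h, and Fdft1, the squalene synthase gene, shared its summit in 5 lists. Fdft1 was the only called gene of 8 tested sterol genes (12.5% risen). Of 17 actin and cytoskeleton genes Msn and Capg rose (11.8%), by 2.70 and 1.95, and the call at Capg remained in 1 of the 8 fits without a library. No gene passed among 14 of the unfolded protein response (median 0.68) or 14 of elongation and Mediator (median 0.15), where the lowest p-values were those of Atf6 (1.93 ± 0.57, limma adjusted p = 0.0522) and Med1 (1.59 ± 0.54, limma adjusted p = 0.102).

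The 2 genotypes were then taken apart. In WT 50 genes rose (0.806%) and 46 fell (0.742%), 1.55% of 6200 in all. In KO 15 rose (0.242%) and 14 fell (0.226%), 0.468% in all, each from 2 against 2 libraries in 1 fit. These counts differ in size, but no gene passed the test of the difference, the interaction of genotype and time in limma (0%), and 313 had an unadjusted p under 0.05. When the number of summits per gene replaced the best rank, 359 genes passed that test, of which 334 had the same number in both libraries of all 4 groups and so no spread to test against. Leaving out replicate 1 or 2 of KO at 4 h gave 45 or 66 genes, and leaving out any other library gave 0. In each of these fits 1 group rested on 1 library, assumed to vary like the others, and the cause of the difference was not tested. The counts within a genotype were as unsteady, with 0 to 63 genes in WT and 0 to 197 in KO when 1 library was left out.

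The list medians stand side by side as follows. For interferon-stimulated genes the median change was 2.03 in WT and 0.56 in KO. For the NF-kB primary response it was -1.68 in WT and 0.12 in KO, and Cxcl2, a neutrophil chemokine, changed by -2.26 in WT and 1.03 in KO. For NRF2 and iron genes it was 0.51 in WT and 2.08 in KO. The differences between these medians were not tested, and over all tested genes the medians were 0.10 and 0.14.

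**Figure D5:**
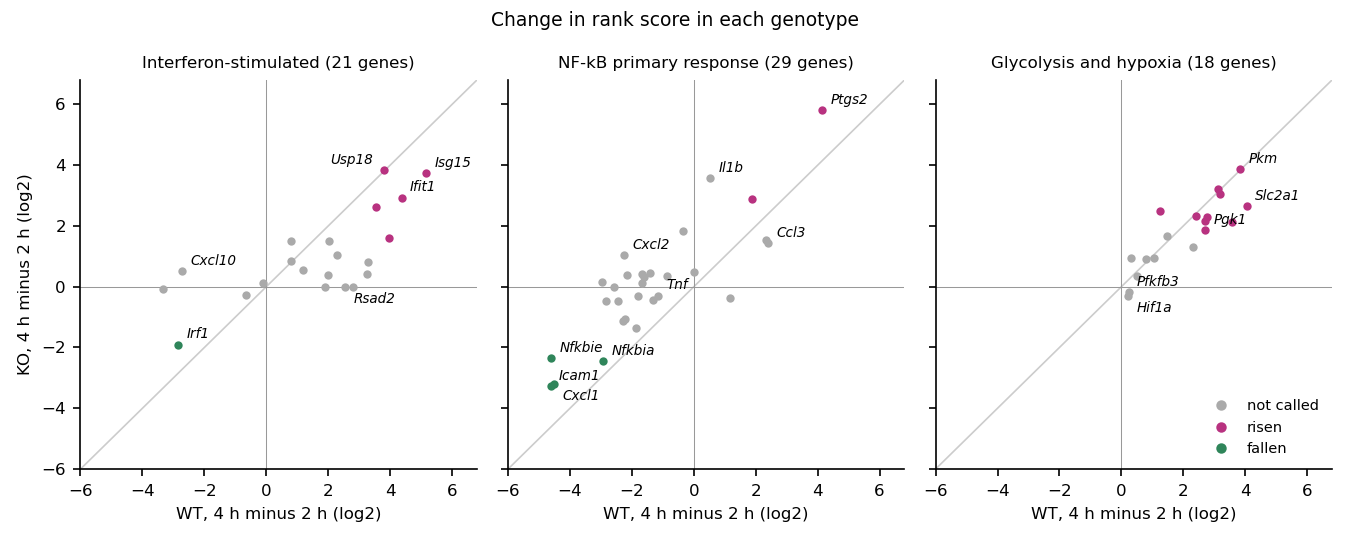
Change in rank score from 2 h to 4 h in KO (vertical, log2) against that in WT (horizontal, log2) for the tested genes of 3 lists, 2 against 2 libraries in each genotype; the diagonal marks equal change. Most NF-kB primary response genes lie above the diagonal and left of 0 in WT, with Ptgs2 at the upper right, while the glycolysis and hypoxia genes lie close to the diagonal; no gene passed the test of the difference.

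The 5 genes of lowest interaction p were Tbc1d10b, Sqstm1, Spidr, Plekho2 and Glipr1, and none passed (limma adjusted p = 0.577 to 0.650). Plekho2, a PH domain protein, ranked at 5521 and 2830 in WT and 1249 and 882 in KO at 2 h and at 116 and 143 in WT and 555 and 805 in KO at 4 h. It rose over both genotypes, by 2.80 ± 0.68 (limma adjusted p = 0.0173, called in 1 of the 8 fits without a library), with changes of 4.94 in WT and 0.65 in KO. Glipr1 changed by 4.42 in WT and -0.25 in KO, at ranks 243 and 305 in WT and 6561 and 2953 in KO at 4 h.

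Regions gave a view free of gene annotation. Summits of the 8 lists were merged within 500 bp, and 12554 regions had a summit in at least 2 lists. Of these 141 rose (1.12%) and 90 fell (0.717%). Further than 5 kb from a gene 15 rose and 2 fell of 911, in gene bodies 34 rose and 31 fell of 5150, and at gene starts 62 rose and 31 fell of 5181. Outside genes but within 5 kb of one, and not at a start, 30 rose and 26 fell of 1312.

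The largest called changes outside genes lay near known genes. Regions less than 1 kb from a gene lie in the span from which that gene's rank was taken. A region 0.36 kb from Ccl3 (chr11:83647476-83647522) held the summit at ranks 3, 1 and 4 in 3 lists at 4 h and none at 2 h, a change of 8.88. These are the ranks of Ccl3 itself in the same 3 lists. Ccl3 ranked within the top 18 at both times, and at 2 h its best summit lay outside this region. At Tnfaip3 one region 1.42 kb away rose by 5.38 and another 0.231 kb away fell by 4.88. Beside Dusp1, a phosphatase that turns off MAP kinases, a region 0.496 kb away rose by 6.08, with ranks of 17, 33 and 51 in 3 lists at 4 h and no summit at 2 h. A region 1.45 kb from Rps9 (chr7:3707849-3708342) ranked at 89 to 192 at 2 h and had no summit at 4 h, a change of -6.02. All of these regions had no summit at one of the times, so their changes are measured from the end of the shortened list and no error is given. A region 0.155 kb from Gtf2ird2 changed by -4.12 ± 0.62 (limma adjusted p = 0.00617).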

How the data were processed

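RNA polymerase II was immunoprecipitated and sequenced as 75 nt single reads, per the labels' protocols. Per the submitters' processing notes, GSNAP, MACS2 and GRCm38 were used. Versions and thresholds are not given in the sources used here. The series also holds a library titled Input, and whether it served as the control for the summits is not given either. The authors deposited 1 list of summits per library, unpooled, with a −log10 score of significance (p or q, the files do not say which). It was used only to rank summits. Tied scores shared the best rank, a rule set after results with ties broken by file order had been seen.

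Gene spans (21887 protein-coding genes) and starts with strand (17492 genes, 79.9%) came from RefSeq tables on GRCm38.p6. Rank scores of genes and regions were tested in limma (version 3.58.1, R version 4.3.3), genotype as covariate for both genotypes together, group means otherwise, with a variance trend, empirical Bayes moderation and Benjamini-Hochberg adjustment over all features tested, at 0.05. The fit was run on simulated scores with normal noise and without the zeros of lists that hold no summit. It is therefore no check on genes with no summit at 2 h or at 4 h. Errors after a change are standard errors (SE) of the fit.

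Replicate numbers did not pair the libraries (correlation of deviations 0.0029 in WT and 0.0046 in KO). Named genes were the target and receptor genes, the 12 largest rises and falls without overlap, up to 4 called genes per list (or the one of lowest p), the 5 of lowest interaction p, 6 regions outside genes and genes in the top 10 of all lists of a time. Others named with values are members of the lists, or were chosen after their values were seen. The comparison and the gene lists were chosen with earlier results of these data known.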

Additional observations from a re-analysis of the deposited data

Results flagged for a closer look

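Tbc1d10b and Spidr moved in opposite directions in the genotypes, in every library. Tbc1d10b, a GTPase-activating protein gene, ranked at 379 and 760 in WT at 2 h and at 5030 in 1 WT list at 4 h, while KO had 1 summit at 2 h (6336) and ranks of 1559 and 2099 at 4 h. The change in KO minus that in WT was 5.609 ± 0.95, and limma's test of this interaction did not pass (adjusted p = 0.577). Its best summit was shared with Mylpf or Cd2bp2 in 6 lists. Spidr, a DNA repair scaffold gene, ranked at 1717 and 1830 in WT and 3197 and 1307 in KO at 2 h, and at 5172 and 2487 in WT and 103 and 134 in KO at 4 h. The difference was 5.138 ± 0.95 and did not pass (adjusted p = 0.577), and Cebpd shared the summit in 2 lists.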

How the results depend on the processing

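Read depth is unknown, 2 libraries a group limit every value, and time coincides with the series of peak name codes. Of the 58 named called genes, 43 kept their call without each library in turn, and the 8 fits lost 6 to 15 each. All 58 kept it at the shortest of the 8 lists and with a summit in at least 4 lists, 57 with 3 kb and with all 16 libraries, 56 with 1 rank per gene, 4000 summits or the replicate block, 53 without the variance trend and 51 with a summit in at least 1 list. Without the block 317 genes were called, and 311 with it. With genes that share summits left out, 42 of the 58 stayed in the fit and kept their call.

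Counts that moved by over 1.5 times were 546 (all 16 libraries) and 502 (a summit in at least 4 lists) against 317 genes. In WT, 96 became 242 with all 16 libraries, 166 with the replicate block, 445 by number of summits, 18 with a summit in at least 1 list, 169 in 4 lists and 201 without the variance trend. In KO, 29 became 132, 78, 414, 10, 73 and 101 in that order, and 15 without genes sharing summits. The interaction became 359 by number of summits. Regions went from 231 to 566 (4 lists), 480 (merged within 1000 bp) and 110 (250 bp). Without 1 library in turn, counts ran from 119 to 233 for genes, 0 to 63 in WT, 0 to 197 in KO, 0 to 66 for the interaction, 28 to 119 for regions and 26 to 40 calls in the gene lists against 46. The cause was not tested beyond the fewer libraries.

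The share of summits at gene starts turned to -2.785 points in the deposited lists, and was 2.526 with either gene end, added after seeing the data. N4bp1 ran from -0.5276 to 0.09804 without 1 library. For Tbc1d10b the change over both genotypes, not the difference between them, turned in sign to 0.7586 with 3 kb. By number of summits, log2(n + 1), a different quantity from the best rank, the sign turned for Lyz2 (-0.8305), Wfdc17 (-0.04248), Tnfaip2 (0.9518), C1qb (0.3685), Icam1 (0.7647, called as a rise, adjusted p = 0.00701), C1qc (0.1462), Cxcl1 (0.2925), Acod1 (-0.6638), Il1rn (-0.161), Tlr2 (0.5805), Ctsb (-0.01016), Cdkn1a (0.2647), H2-K1 (0.1842), Capg (-0.1038) and Ccl3 (-0.1462), and 12 of the 58 calls remained.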
